A study of Mus musculus with 11 samples.

Results

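Hippo pathway effectors were followed as a set of 10 genes, Yap1, Wwtr1, Tead1, Tead3, Lats1, Lats2, Ajuba, Amotl2, Frmd6 and Vgll4, taken by symbol from the 52550 genes of the expression table. All 10 were found, and all 10 were among the 14419 genes that passed the filter on low values, a CPM above 1 in at least 2 libraries. RNA-seq was performed on poly-A RNA of sorted epidermal keratinocytes (KCs) and dendritic epidermal T cells (DETCs), the resident γ/δ T cells of mouse epidermis, from 8 weeks old female mice. LC-/- mice (huLangerin-DTA, labelled DTA) carry diphtheria toxin subunit A under human langerin control and lack Langerhans cells (LCs) from birth, and WT littermates served as controls. KCs were sequenced from 3 WT and 3 LC-/- mice and DETCs from 3 WT and 2 LC-/- mice. KCs were sorted as live MHC-II-, CD45-, langerin- and c-kit- cells, and DETCs by the same gate but CD45+. Libraries are named W1 to W3 (WT) and L1 to L3 (LC-/-) in the order of the numbers in their titles, and L1 has a KC library alone. The question asked of each gene was whether its level differed in KCs or DETCs that had developed without LCs.

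Libraries held 13491075 to 19750440 reads assigned to genes. Values below are normalized counts, the reads of a gene divided by the size factor of its library. Cd207, which encodes langerin, had a level of 6.15, 26.9 and 15.6 in WT KC libraries and 0 in all 3 LC-/- KC libraries, and of 21.8, 16.5 and 46.7 in WT against 0 and 4.42 in LC-/- DETCs. The 15 DETC marker genes summed to 218708 to 223208 in WT and to 190144 and 199836 in LC-/- DETCs, lower without overlap, and to 347 to 671 in KC libraries. The 24 keratinocyte marker genes summed to 770916 to 832176 in KC libraries and still to 132789 to 222704 in DETC libraries. The median ratio of these 24 genes in a DETC library to their mean in the KC libraries of the same genotype is termed the keratinocyte share. It stood at 15.3%, 15.8% and 18.6% in W1 to W3, at 24.97% in L2 and at 16.8% in L3. In these bulk libraries, fewer cells of a type and less RNA per cell cannot be told apart. The 9 LC markers summed to 6153 to 6766 in WT and 9554 to 10086 in LC-/- KCs, most of it Epcam, which KCs also express and whose log2 fold change was 0.68 in KCs and 0.72 in DETCs. Of the other marker lists, 9 hair follicle genes summed to 32798 to 40879 in KC libraries, to 6359, 7037 and 8532 in WT DETCs and to 9349 and 9401 in LC-/- DETCs, higher without overlap. The part of these marker shifts in the DETC results below was not tested. The mast cell, melanocyte, fibroblast and endothelial lists summed to at most 573, 85.6, 158 and 46.4 in any library. In each DETC library only 1 of the 7 mast cell genes, Kit, had reads.

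In the Hippo pathway, the kinases LATS1 and LATS2 phosphorylate the transcriptional co-activators YAP (Yap1) and TAZ (Wwtr1), which are then kept in the cytoplasm or degraded. Unphosphorylated YAP and TAZ enter the nucleus and bind TEAD transcription factors (Tead1 and Tead3 here), and VGLL4 competes with them for TEADs. AJUBA, AMOTL2 and FRMD6 act upstream at the cell cortex and cell junctions, and in the epidermis YAP is known for its role in the proliferation of basal keratinocytes. Lats2 itself is a known target of YAP and TEAD, which closes a feedback loop.

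The genes that changed in LC-/- mice were Ajuba in KCs and Lats2 and Vgll4 in DETCs, and their promoter windows are shown for this reason. RefSeq (GRCm38.p6) gave windows of 300 bases, 250 before and 50 after an annotated start, for 9 of the 10 genes, 13 windows in all. The sequences are on the strand of the gene, all 3 on the minus strand, and capitals mark the TEAD core motif GGAATG or its reverse complement CATTCC.
Ajuba promoter, chr14:54577612-54577911: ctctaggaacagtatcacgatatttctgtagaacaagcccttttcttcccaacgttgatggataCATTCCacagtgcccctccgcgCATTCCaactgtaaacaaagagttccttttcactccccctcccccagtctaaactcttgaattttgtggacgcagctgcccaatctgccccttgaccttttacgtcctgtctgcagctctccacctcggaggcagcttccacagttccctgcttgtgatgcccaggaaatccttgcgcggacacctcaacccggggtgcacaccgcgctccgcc
Lats2 promoter, chr14:57746074-57746373: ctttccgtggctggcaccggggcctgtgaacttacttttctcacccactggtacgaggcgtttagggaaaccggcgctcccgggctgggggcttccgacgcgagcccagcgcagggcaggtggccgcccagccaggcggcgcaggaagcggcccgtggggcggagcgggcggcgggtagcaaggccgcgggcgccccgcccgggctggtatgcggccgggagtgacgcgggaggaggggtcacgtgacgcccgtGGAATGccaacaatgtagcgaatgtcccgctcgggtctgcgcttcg
Vgll4 promoter, chr6:114969154-114969453: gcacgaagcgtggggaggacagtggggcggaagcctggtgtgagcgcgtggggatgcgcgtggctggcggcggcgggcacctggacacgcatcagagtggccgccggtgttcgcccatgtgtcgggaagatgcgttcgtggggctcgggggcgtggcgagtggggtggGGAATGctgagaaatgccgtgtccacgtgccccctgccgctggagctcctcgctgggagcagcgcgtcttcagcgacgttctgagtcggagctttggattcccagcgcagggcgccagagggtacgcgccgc
The Ajuba window held CATTCC with its first base at -186 and again at -164, where 1 is the first base after the start and -1 the base before it. In the Lats2 window GGAATG began at 5, and in that of Vgll4 at -82. A second annotated Lats2 start, chr14:57734369-57734668, had no match. Over all windows of the 10 genes the motif was present in either direction in 9 of 13, or in 7 of the 9 genes (Yap1, Wwtr1, Tead3, Lats2, Ajuba, Amotl2 and Vgll4), against 14.7% of 32851 windows and 16.6% of 27025 genes in the RefSeq table. Both windows of Wwtr1 overlap and share their match, and the Tead3 windows overlap without sharing one. The AP-1 motif TGANTCA, a frequent neighbour of TEAD sites, was in 0 of the 13 windows and in 7.81% of all windows. These matches describe letters in the windows and are not measured binding sites.

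In LC-/- KCs 1 of the 10 genes was called, Ajuba, which was lower, where called means an adjusted p under 0.05 by limma with Benjamini-Hochberg adjustment over all 14419 genes. Of all tested genes 7.23% were called in KCs, 5.37% higher and 1.85% lower. Without any call, the LC-/- range lay above the WT range for Yap1, Wwtr1, Tead1, Tead3 and Lats1, and with Ajuba below it 6 of 10 genes did not overlap, against 31.5% of all genes. In LC-/- DETCs 2 of the 10 genes were called, Lats2 and Vgll4, which were higher, against 3.56% of all genes called (3.13% higher and 0.430% lower). Both LC-/- DETC libraries lay above all WT libraries for 7 of the 10 genes, against 21.3% of all genes and 37.9% without overlap in either direction. The median log2 fold change of the 10 genes was 0.01 in KCs and 0.36 in DETCs, and that of all genes was -0.01 and 0.02. The DETC values include the keratinocyte share, which was highest in L2 (24.97%). For Wwtr1 and Tead3, which are among the 7 genes, it gave at least 89.6% and 85.1% of each DETC count. Its part in the 7 genes and in the DETC median was not tested.

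**Figure D1:**
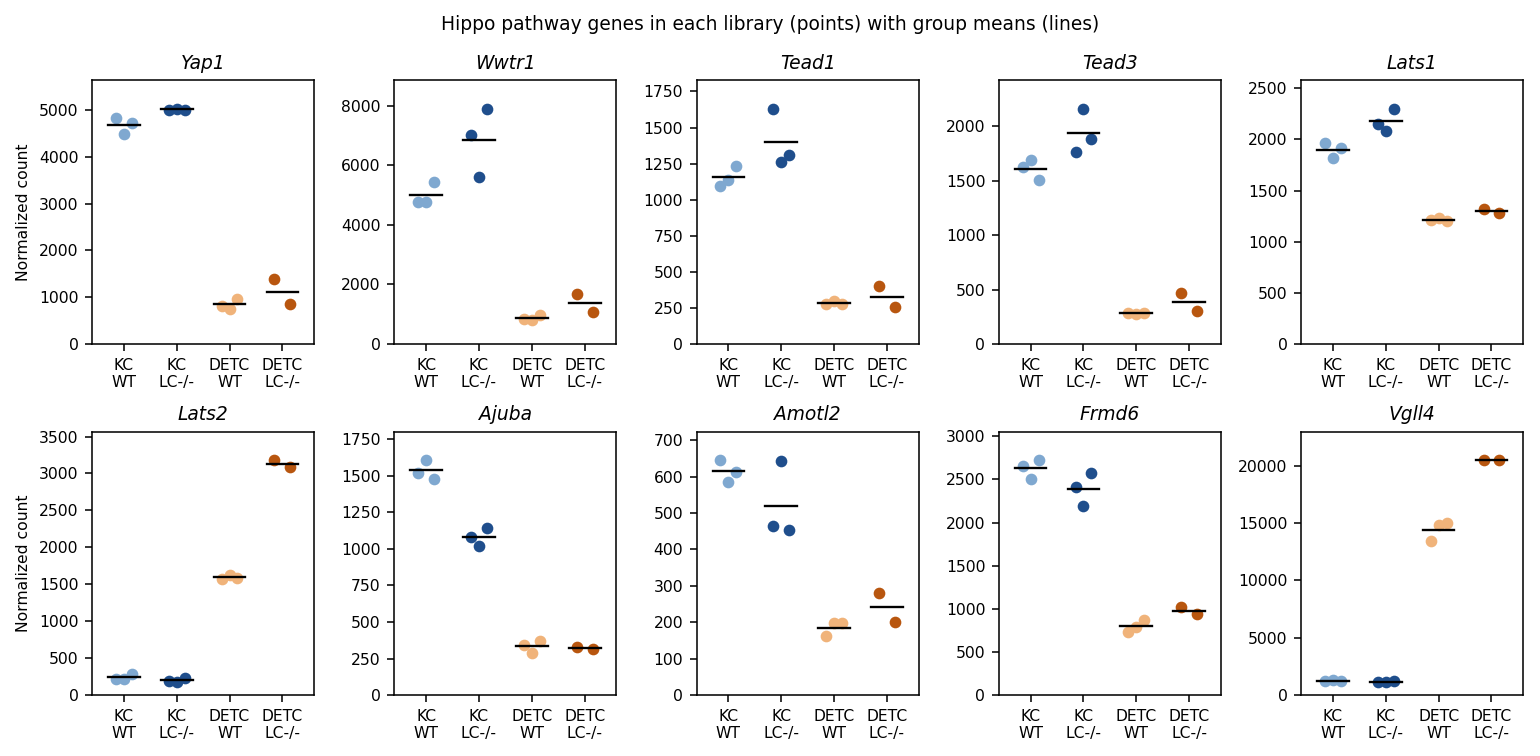
Normalized count (linear axis from 0, its own scale for each gene) of the 10 Hippo pathway genes in 11 libraries, by population and genotype. Points are libraries and lines are group means; Ajuba lies lower in LC-/- than in WT KCs, and the LC-/- DETC libraries of Lats2 (3184 and 3085) and Vgll4 (20447 and 20494) lie above the WT ones.

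Yap1 lies on chromosome 9 (7931999 to 8004596, minus strand, GRCm38). KC libraries of WT mice held 4831, 4477 and 4721 against 5003, 5032 and 5003 in LC-/- mice, so all 3 LC-/- libraries stood narrowly above the WT ones. The log2 fold change in KCs was 0.10 ± 0.04 (SE, adjusted p = 0.180), which did not pass the threshold. DETC libraries held 821, 747 and 967 in WT against 1378 and 851 in LC-/- mice. Of these, L2 was high and L3 lay within the WT range. The log2 fold change in DETCs was 0.37 ± 0.20 (SE, adjusted p = 0.365).

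Wwtr1, which encodes TAZ, lies on chromosome 3 (57455649 to 57575910, minus strand). KC libraries held 4755, 4763 and 5456 in WT against 7033, 5595 and 7910.2 in LC-/- mice. Every LC-/- library was above every WT library, with L2 closest to them. The log2 fold change was 0.44 ± 0.14 (SE, adjusted p = 0.127) by limma, which did not call it, whereas the count tests on recovered reads did (adjusted p = 0.0169 by edgeR and 0.00154 by DESeq2). In DETCs the counts were 852, 809 and 987 in WT against 1665 and 1069 in LC-/- mice, and the groups did not overlap. Its log2 fold change in DETCs was 0.60 ± 0.18 (SE, adjusted p = 0.121), called neither by limma nor by edgeR (adjusted p = 0.117) but called by DESeq2 (adjusted p = 0.0205). The higher value was again that of L2, the DETC library with the highest keratinocyte share.

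Among the TEAD factors, Tead1 (chromosome 7, 112679318 to 112906807, plus strand) had 1097, 1138 and 1233 in WT against 1632, 1263 and 1312 in LC-/- KCs. L1 stood well above the rest and the groups did not overlap, but the log2 fold change of 0.27 ± 0.11 (SE, adjusted p = 0.202) did not pass. In DETCs Tead1 was 276, 299.6 and 279.1 in WT against 400.0 and 257 in LC-/- mice, 1 above and 1 below all WT values, with a log2 fold change of 0.17 ± 0.19 (SE, adjusted p = 0.677). Tead3 (chromosome 17, 28331671 to 28350817, minus strand) had 1630.4, 1691 and 1507 in WT against 1764, 2165 and 1888 in LC-/- KCs. All LC-/- libraries were the higher ones, L2 the most, and the log2 fold change was 0.27 ± 0.09 (SE, adjusted p = 0.141). The DETC counts of Tead3 were 289, 271 and 289 in WT against 469 and 305 in LC-/- mice. L2 was far above WT and L3 just above it, with a log2 fold change of 0.42 ± 0.18 (SE, adjusted p = 0.260).

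Vgll4, the TEAD-binding competitor of YAP, was the leading gene of the 10 in DETCs. It had the highest level per kb of exon and lies on chromosome 6 (114860628 to 114969994, minus strand). WT DETCs held 13470.3, 14809 and 14962 and LC-/- DETCs 20447 and 20494, so both LC-/- libraries exceeded every WT library and were close to each other. The mean rose 1.42-fold, from 14414 ± 821 (SD, n = 3) to 20470.1 ± 33.2 (SD, n = 2), and the log2 fold change was 0.51 ± 0.10 (SE, adjusted p = 0.0426). In KCs the counts were lower throughout, 1267, 1297 and 1215 in WT against 1139, 1176 and 1247 in LC-/- mice. The KC groups overlapped, and the log2 fold change was -0.09 ± 0.05 (SE, adjusted p = 0.316). The DETC call was lost with quantile normalization (log2 fold change 0.20, adjusted p = 0.190), without a mean-variance trend (0.51, adjusted p = 0.180) and after subtraction of the keratinocyte share (0.51, adjusted p = 0.126). It was also lost without W2 (0.139), W3 (0.123), L2 (0.230) or L3 (0.129), while the log2 fold change stayed between 0.51 and 0.54 in those 4 fits.

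Of the LATS kinases, Lats1 (chromosome 10, 7681214 to 7716460, plus strand) changed little. Its KC counts were 1960.4, 1819 and 1921 in WT against 2148, 2079.6 and 2302 in LC-/- mice, with the LC-/- libraries above the WT ones. The log2 fold change was 0.20 ± 0.05 (SE, adjusted p = 0.0896). In DETCs the counts were 1212, 1227 and 1204 in WT against 1322 and 1278 in LC-/- mice, again without overlap. That log2 fold change was 0.10 ± 0.08 (SE, adjusted p = 0.562).

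Lats2 (chromosome 14, 57689662 to 57758388, minus strand) had the largest change of the 10 genes. WT DETCs held 1568, 1631 and 1593 and LC-/- DETCs 3184 and 3085. The libraries within each genotype lay close together and the genotypes were far apart. From 1597 ± 31.9 (SD, n = 3) the mean rose to 3134 ± 69.9 (SD, n = 2), 1.96-fold, with a log2 fold change of 0.97 ± 0.08 (SE, adjusted p = 0.00556). In KCs Lats2 was low, at 228, 219 and 284 in WT against 201, 186 and 229 in LC-/- mice. The KC groups overlapped and the log2 fold change was -0.24 ± 0.14 (SE, adjusted p = 0.321). Leaving out any of the 5 DETC libraries kept the call (adjusted p = 0.00996 to 0.0422) and so did subtraction of the keratinocyte share (log2 fold change 0.99, adjusted p = 0.0447). A fit without a mean-variance trend did not keep it (adjusted p = 0.179), and by that fit 0 of all genes were called by limma (at an unadjusted p under 0.05 the counts were 1554 up and 853 down). The gene model Gm49361 shares 2955 of the 6971 exonic bases of Lats2 on the same strand. No reads were found for it, where a count of 0 and absence from the expression table were not told apart. How reads lying in both models were counted is not given in the sources used here.

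Ajuba, a LIM-domain protein of cell junctions that binds and restrains LATS kinases, lies on chromosome 14 (54567472 to 54577558, minus strand). KC libraries held 1519.7, 1606 and 1478 in WT against 1081, 1018 and 1142 in LC-/- mice. All 3 LC-/- libraries were below all WT libraries by a gap wider than either group's range. The mean fell from 1535 ± 65.5 (SD, n = 3) to 1080.3 ± 62.1 (SD, n = 3), 1.42-fold lower, and the log2 fold change was -0.51 ± 0.06 (SE, adjusted p = 0.0198). In DETC libraries Ajuba was 340.5, 290.5 and 369.5 in WT against 330.1 and 314 in LC-/- mice. The DETC groups overlapped, with a log2 fold change of -0.04 ± 0.14 (SE, adjusted p = 0.901). The keratinocyte share gave 58.0% to 83.2% of these DETC counts. With 1 KC library left out, limma kept the Ajuba call without L2 (adjusted p = 0.0411) and lost it without W1 (0.0768), W2 (0.0778), W3 (0.0515), L1 (0.0814) or L3 (0.0669). The fits that lost it called 5 to 224 of all genes, against 1042 with every KC library. Over all these fits the Ajuba log2 fold change stayed between -0.55 and -0.46. With all libraries both count tests called it too (adjusted p = 0.00136 by edgeR and 4.45e-06 by DESeq2).

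Amotl2, of the angiomotin family that binds YAP and TAZ at junctions, lies on chromosome 9 (102716672 to 102733418, plus strand). Its KC counts were 646, 585 and 612 in WT against 464, 642 and 453 in LC-/- mice. L1 and L3 were below WT, but L2 was as high as WT, so the groups overlapped and the log2 fold change of -0.26 ± 0.15 (SE, adjusted p = 0.330) did not pass. Without L2 it was -0.42 (adjusted p = 0.0429). In DETCs Amotl2 was 162, 198 and 197 in WT against 282 and 201 in LC-/- mice, both LC-/- values above the WT ones, L3 only just. The log2 fold change there was 0.36 ± 0.19 (SE, adjusted p = 0.338). Frmd6, a FERM-domain protein upstream of the kinases, lies on chromosome 12 (70825514 to 70902234, plus strand). KC libraries held 2654, 2509.9 and 2726 of Frmd6 in WT against 2415, 2188 and 2569 in LC-/- mice. The groups overlapped, with a log2 fold change of -0.14 ± 0.07 (SE, adjusted p = 0.273), and quantile normalization gave -0.27 (adjusted p = 0.0418). In DETCs Frmd6 had 735, 788 and 872 in WT against 1019 and 939.8 in LC-/- mice, and both LC-/- libraries were above the WT range. That log2 fold change was 0.30 ± 0.10 (SE, adjusted p = 0.175).

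**Figure D2:**
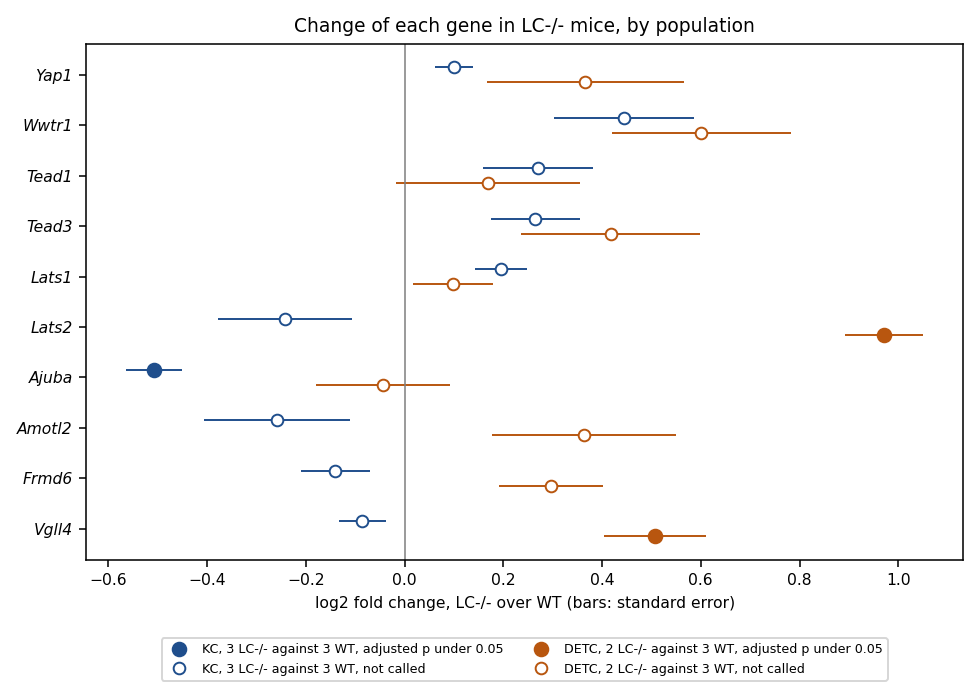
Log2 fold change of each gene (horizontal axis, LC-/- over WT, bars are standard errors) in KCs (blue) and DETCs (orange), filled where the adjusted p was under 0.05. Filled points are Ajuba in KCs at -0.51 and Lats2 (0.97) and Vgll4 (0.51) in DETCs.

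The change in LC-/- mice differed between the populations for Lats2 and Vgll4 when tested as an interaction term by limma on the 11 libraries. The difference, DETC change minus KC change, was 1.21 ± 0.16 (SE, adjusted p = 0.00652) for Lats2 and 0.59 ± 0.11 (SE, adjusted p = 0.0243) for Vgll4 on the log2 scale. These were 2 of 10 genes, where 0.798% of all genes differed. Ajuba, called in KCs alone, had a difference of 0.46 ± 0.14 (SE, adjusted p = 0.194), so the 2 populations were not shown to differ for it. Frmd6 (0.44, adjusted p = 0.173) and Amotl2 (0.62, adjusted p = 0.335) also had opposite signs in KCs and DETCs without passing. The differences of Yap1, Wwtr1, Tead1, Tead3 and Lats1 lay between -0.10 and 0.27 with adjusted p-values from 0.729 to 0.915. For Yap1, Wwtr1, Tead1 and Tead3 the keratinocyte share gave at least 60.8% of each DETC count. For Ajuba it gave 58.0% to 83.2%, and for Amotl2 and Frmd6 at least 43.5% and 42.9%. The differences of these genes are therefore not a measure of DETCs alone and cannot show whether DETCs changed as KCs did. The Lats2 difference was called in all 11 fits without 1 library (adjusted p = 0.00884 to 0.0420). That of Vgll4 was called in 5 of these 11 (0.0346 to 0.0830), and was lost without W1, W2, W3 or L1 of the KC libraries or without either LC-/- DETC library. Quantile normalization (0.0608) and a fit without trend (0.0989) also lost it. KC and DETC libraries share numbers in their titles, and a limma fit with these as a replicate block lost Vgll4 as well (adjusted p = 0.174). That fit kept the Lats2 difference (adjusted p = 0.0483).

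In WT mice all 10 genes differed between DETCs and KCs, 2 higher and 8 lower in DETCs, against 76.0% of all genes (41.0% higher and 35.1% lower). Lats2 was 6.58-fold and Vgll4 11.4-fold higher in WT DETCs, with log2 fold changes of 2.72 ± 0.10 (SE, adjusted p = 1.17e-08) and 3.51 ± 0.07 (SE, adjusted p = 3.25e-10) by limma. The other 8 genes were lower in DETCs. Wwtr1 was 5.66-fold, Tead3 5.66-fold and Yap1 5.56-fold lower, followed by Ajuba (4.61-fold), Tead1 (4.04-fold), Amotl2 (3.31-fold) and Frmd6 (3.30-fold). The keratinocyte share times the KC mean gave at least 85.1% of the Tead3 count in every DETC library, 87.1% of Yap1 and 89.6% of Wwtr1. For Tead1 and Ajuba it gave at least 60.8% and 58.0%. These folds are those of the libraries, and the level in DETCs themselves was not tested. Lats1 differed least, 1.56-fold lower, with a log2 fold change of -0.64 ± 0.06 (SE, adjusted p = 8.93e-06). All 10 kept their direction and their call in each alternative analysis, although quantile normalization moved the median log2 difference of all genes from 0.07 to -0.24 and the share of higher genes among all calls from 53.9% to 41.3%.

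Part of what DETC libraries held of these genes ran at the level of their keratinocyte markers. Expressed as a percentage of the mean KC value of the same genotype, Yap1 stood at 17.5%, 16.0%, 20.7%, 27.5% and 17.0% in DETC libraries W1, W2, W3, L2 and L3. Each value lay within the quartiles of the 24 keratinocyte markers of its library, and L2 was the highest, as it was for the markers. Wwtr1 (15.6% to 24.3%) and Tead3 (15.7% to 24.2%) were likewise within these quartiles in all 5 libraries, Tead1 (18.3% to 28.5%) in 4 and Ajuba (18.9% to 30.6%) in 3. The keratinocyte share times the KC mean gave 87.1% to 99.2% of the Yap1 count observed in a DETC library, 89.6% to 108% of that of Wwtr1 and 85.1% to 107% of that of Tead3. Amotl2 (26.3% to 54.2%), Frmd6 (28.0% to 42.6%) and Lats1 (58.7% to 64.6%) stood above the quartiles in all 5 libraries. Lats2 and Vgll4 were at 644% to 1551% and 1069.7% to 1726% of the KC level, and the share gave at most 2.85% and 1.57% of their DETC counts. After subtraction of the share, the DETC log2 fold changes of Yap1, Tead1 and Lats1 changed sign, to -0.61, -1.48 and -0.09, and none of them was called. For Wwtr1 the share exceeded the count in both LC-/- libraries and for Tead3 in W3, L2 and L3, so these were left at 0 and no fold is given.

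**Figure D3:**
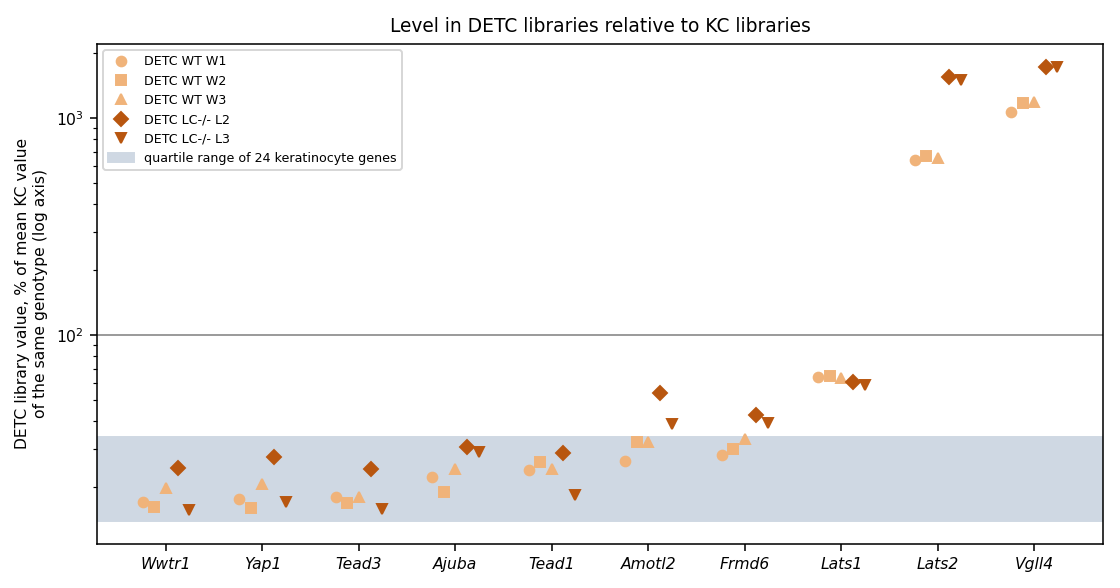
Level of each gene in each DETC library as a percentage of the mean KC level of the same genotype (log axis), with the range between the lowest and highest quartile of 24 keratinocyte markers shaded (13.9% to 33.8%). Yap1, Wwtr1 and Tead3 lie inside the shading, Lats1 lies above it at 58.7% to 64.6%, and Lats2 and Vgll4 lie above 100%.

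Levels were compared between genes as normalized counts per kb of exon. In WT KCs the order was Wwtr1 (1044 ± 84.2, SD, n = 3), Yap1 (505 ± 19.5), Ajuba (421 ± 18.0), Frmd6 (411 ± 17.2), Lats1 (260.4 ± 10.01), Tead3 (239.7 ± 13.98), Vgll4 (233 ± 7.70), Amotl2 (97.7 ± 4.81), Tead1 (85.2 ± 5.14) and Lats2 (34.9 ± 5.11). The ranges over libraries overlapped between Ajuba and Frmd6, between Lats1 and Tead3 and between Tead3 and Vgll4, and were apart for the other neighbours. In LC-/- KCs Ajuba moved from the third to the fifth place, at 296 ± 17.0 (SD, n = 3), overlapping Lats1 and Tead3. In WT DETCs Vgll4 led at 2671 ± 152 (SD, n = 3), ahead of Lats2 (229 ± 4.58), Wwtr1 (185 ± 19.5), Lats1 (166 ± 1.61) and Frmd6 (125 ± 10.8). Tead1 was lowest at 20.996 ± 0.941, and of the neighbours only Ajuba and Yap1 overlapped. LC-/- DETCs had the same first 5 genes in the same order, with Lats2 at 449.6 ± 10.03 and Vgll4 at 3794 ± 6.15 (SD, n = 2). These orders are those of the DETC libraries, where the keratinocyte share gave at least 89.6% of each Wwtr1 count.

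Shares within gene families were computed from the same counts per kb. Lats2 made up 10.8%, 11.2% and 13.4% of the Lats1 and Lats2 sum in WT KCs and 8.90%, 8.57% and 9.43% in LC-/- KCs. In DETCs it made up 57.5%, 58.2% and 58.1% in WT against 71.6% and 71.6% in LC-/- mice. By counts per kb, Lats1 was thus the major LATS transcript in KC libraries and Lats2 in DETC libraries. The shares did not overlap between genotypes in either population. Of the 6971 exonic bases used for Lats2, 2955 are shared with Gm49361, and how reads there were counted is not given. The mean Lats2 share differed by -2.84 percentage points in KCs (exact permutation test, two-sided p = 0.1) and by 13.7 in DETCs (p = 0.2, exact), in each case the smallest p that 3 against 3 or 3 against 2 libraries allow. Tead3 was the major of the 4 TEAD genes in all libraries, with a mean of 63.7% in WT KCs and 56.1% in WT DETCs. Tead4 made up 9.16%, 11.4% and 15.3% in WT against 22.0%, 18.0% and 17.9% in LC-/- KCs, and its share was higher in each LC-/- library (exact permutation p = 0.1, again the smallest possible). Wwtr1 was 65.6%, 67.3% and 69.1% of the Yap1 and Wwtr1 sum in WT KCs and 73.1%, 68.3% and 75.4% in LC-/- KCs, with overlap (exact permutation p = 0.2). DETC libraries had nearly the KC shares of Wwtr1, 66.8%, 67.7% and 66.4% in WT against 70.1% and 70.9% in LC-/- mice. The keratinocyte share gave at least 87.1% of each DETC count of Yap1 and Wwtr1, and 60.8% of those of Tead1, Tead3 and Tead4. The family shares of these genes in DETC libraries are therefore not a measure of DETCs alone.

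**Figure D4:**
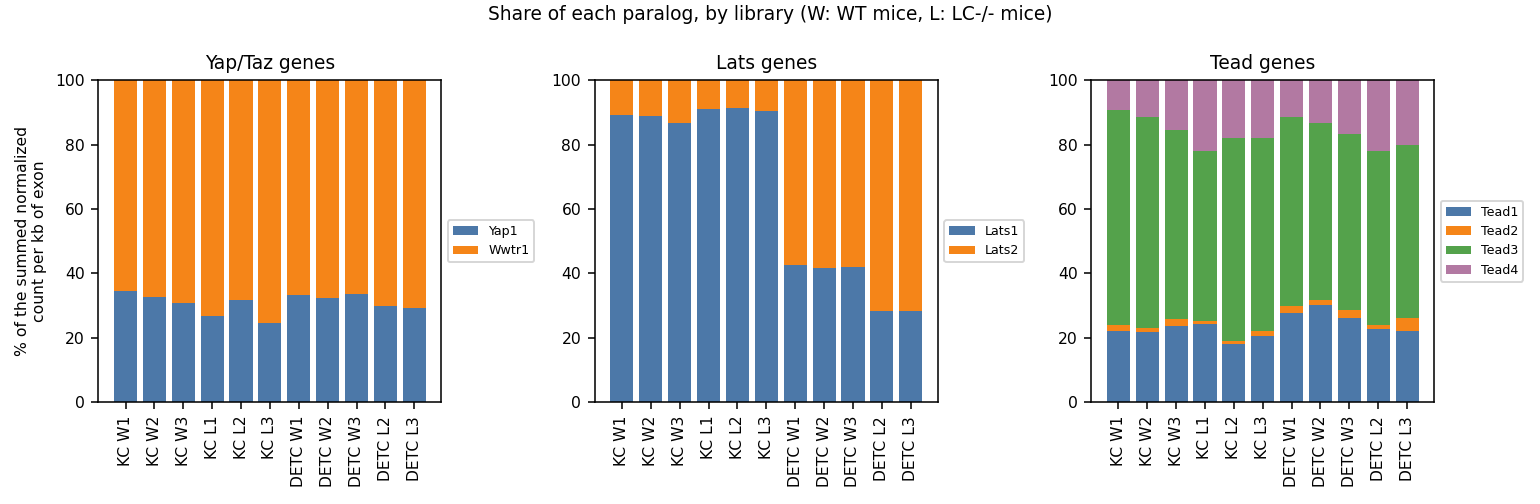
Share of each paralog in the summed normalized count per kb of the Yap1 and Wwtr1, Lats1 and Lats2, and Tead1 to Tead4 genes (vertical axis in %), 1 bar for each library. Lats2 takes 57.5% to 58.2% of the LATS sum in WT DETCs, 71.6% in both LC-/- DETC libraries and at most 13.4% in KC libraries.

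The genes most alike in pattern were taken by Pearson correlation of log2 values over the 11 libraries, as a description, since KC and DETC libraries form 2 clusters that dominate it. For Yap1 these were Ets2 at 0.9988, Krt14 at 0.9985 and Cachd1 at 0.9985. For Wwtr1 they were Cldn1 at 0.9986, Eif1a at 0.9982 and Sar1b at 0.9979. For Vgll4 they were Plekha2 at 0.9993, Elovl5 at 0.9993 and Rassf5 at 0.9992. Krt14, the basal keratin, is 1 of the 24 keratinocyte markers.

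Other genes of the pathway were taken from 5 lists of 67 genes, of which 63 were tested (Vgll1, Vgll2, Ankrd1 and Foxf2 were not). In KCs 10 were called, 9 of them higher, or 15.9% against 7.23% of all genes, with a median log2 fold change of 0.07. In DETCs 3 were called, all higher, or 4.76% against 3.56%, with a median of 0.19.

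Of 11 core kinases and cofactors, Map4k4, a kinase that can activate LATS, was called higher in both populations and the other 10 in neither. It had 3669, 3215 and 3676 in WT against 4337, 4484 and 4719 in LC-/- KCs (log2 fold change 0.36 ± 0.07, adjusted p = 0.0448), and 5028, 5333 and 5374 in WT against 6868 and 6875 in LC-/- DETCs (log2 fold change 0.39 ± 0.08, adjusted p = 0.0495). Neither pair of groups overlapped. The MST kinase genes Stk3 and Stk4, which phosphorylate LATS, had KC log2 fold changes of -0.10 (adjusted p = 0.674) and -0.14 (0.503) and DETC values of -0.02 (0.966) and 0.32 (0.151). Stk4, like Lats2 and Vgll4, was higher in WT DETCs, at 4404 ± 393 (SD, n = 3) against 510.2 ± 74.3 (SD, n = 3) in WT KCs.

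Of 20 upstream and junction regulators, 3 were called higher in KCs. These were Fat1, an atypical cadherin (log2 fold change 0.33 ± 0.05, adjusted p = 0.0274), Crb3, an apical polarity protein (log2 fold change 0.55 ± 0.10, adjusted p = 0.0415), and Limd1, a LIM-domain relative of AJUBA (log2 fold change 0.26 ± 0.04, adjusted p = 0.0251). Limd1 thus rose in KCs where Ajuba fell. Nf2, which encodes Merlin, had 1237, 1216 and 1129 in WT against 1061, 1105 and 934 in LC-/- KCs, lower without overlap but not called (log2 fold change -0.21 ± 0.08, adjusted p = 0.163). Its DETC log2 fold change was -0.11 (adjusted p = 0.524).

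Of 12 genes for retention and turnover of YAP and TAZ, 3 were called higher in KCs and 1 in DETCs. Fbxw11, a β-TrCP subunit of the ligase that degrades phosphorylated YAP and TAZ, had 1761, 1875 and 1986 in WT against 2777, 2596 and 3036 in LC-/- KCs (log2 fold change 0.58 ± 0.08, adjusted p = 0.0248). In DETCs it had 1629, 1776 and 1824 in WT against 2521 and 2342 in LC-/- mice (log2 fold change 0.48 ± 0.09, adjusted p = 0.0333). Csnk1d, a kinase that takes part in this degradation, rose in KCs (log2 fold change 0.40 ± 0.05, adjusted p = 0.0238), as did Siah2, a ubiquitin ligase that targets LATS2 (log2 fold change 0.25 ± 0.05, adjusted p = 0.0467).

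The list of TEAD partners also held TEAD factors, and of its 3 tested genes (Tead2, Tead4 and Vgll3) Tead4 came closest to a call. It had 119.9, 158 and 211 in WT against 393, 332 and 302 in LC-/- KCs, without overlap and with a log2 fold change of 1.10 ± 0.23 (SE, adjusted p = 0.0540) just above the threshold. The count tests on recovered reads both called it in KCs (adjusted p = 0.00185 by edgeR and 4.35e-07 by DESeq2). In DETCs Tead4 was 30.6, 34.7 and 47.6 in WT against 103 and 61.9 in LC-/- mice (log2 fold change 1.09 ± 0.31, adjusted p = 0.108), and the share of the KC level that this makes, 18.1% to 30.1%, was near that of the keratinocyte markers. Tead2 had log2 fold changes of -0.27 (adjusted p = 0.558) in KCs and 0.61 (0.539) in DETCs.

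Of 18 tested genes of a YAP and TAZ target signature, 2 rose and 1 fell in KCs, and 1 rose in DETCs. The median log2 fold change of the signature was 0.02 in KCs and 0.22 in DETCs. Its best known members did not pass. Ccn1 had 8248, 7330.2 and 8232 in WT against 6193, 7592 and 9373 in LC-/- KCs, with overlap (log2 fold change -0.06 ± 0.16, adjusted p = 0.861). Ccn2 had 2229, 1724 and 2070.3 in WT against 1493, 1771 and 1097 in LC-/- KCs, with overlap through L2 (log2 fold change -0.48 ± 0.20, adjusted p = 0.206, and adjusted p = 0.0121 by DESeq2). Their DETC log2 fold changes were 0.26 (adjusted p = 0.357) and 0.07 (0.927). F3, which encodes tissue factor, rose in both populations, from 4127 ± 661 (SD, n = 3) to 8853 ± 1936 (SD, n = 3) in KCs (log2 fold change 1.09 ± 0.21, adjusted p = 0.0459) and from 563 ± 105 (SD, n = 3) to 1629 ± 381 (SD, n = 2) in DETCs (log2 fold change 1.53 ± 0.18, adjusted p = 0.0124). In DETCs subtraction of the keratinocyte share left F3 at 0 in every library. Ccdc80, a secreted matrix protein, rose in KCs (log2 fold change 1.28 ± 0.22, adjusted p = 0.0377), and Nuak2, a kinase, fell (log2 fold change -0.49 ± 0.05, adjusted p = 0.0193). The called targets thus went in both directions in KCs.

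These pathway calls were sensitive to single libraries and to the scaling, and so were the calls over all genes. Without W1, W2, W3, L1 or L3 of the KC libraries, limma called 15, 16, 224, 5 and 16 of all genes in KCs. It called 721 without L2 and 1042 with every KC library. With 1 KC library left out, the KC calls of Fat1, Crb3, Limd1, Fbxw11, Csnk1d, F3, Ccdc80 and Nuak2 were kept without L2 alone (adjusted p = 0.0406 to 0.0484) and lost without W1, W2, W3, L1 or L3, and those of Map4k4 and Siah2 were lost in all 6 fits (up to 0.116 and 0.143). Quantile normalization lost the KC calls of Map4k4 (adjusted p = 0.0816), Fat1 (0.0978), Crb3 (0.0555), Limd1 (0.135), Csnk1d (0.0824), Siah2 (0.0985) and F3 (0.0607), and the log2 fold changes of Fat1 and Limd1 were then 0.15 and 0.12. A single fit over the 11 libraries lost Fat1 (0.146) and Crb3 (0.110), TMM scaling lost Map4k4 (0.0539) and F3 (0.0508), and a fit without trend lost Map4k4, F3 and Crb3 (0.0621, 0.0569 and 0.0531). Siah2 was called by neither edgeR (0.0531) nor DESeq2 (0.0576), and pseudocounts of 0.5 and 8 were the only alternatives that kept it. Fbxw11, Ccdc80 and Nuak2 kept their KC calls in every alternative that left no library out. In DETCs Map4k4 was lost without any of the 5 libraries (0.0509 to 0.230) and Fbxw11 without any but L3, whereas F3 was kept in all 5 fits. The DETC call of Map4k4 was also lost with no filter (adjusted p = 0.0646), TMM scaling (0.0520), edgeR (0.0548) and quantile normalization (0.216), and that of Fbxw11 with quantile normalization (0.0738). A fit without trend and subtraction of the share each lost all 3 DETC calls.

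**Figure D5:**
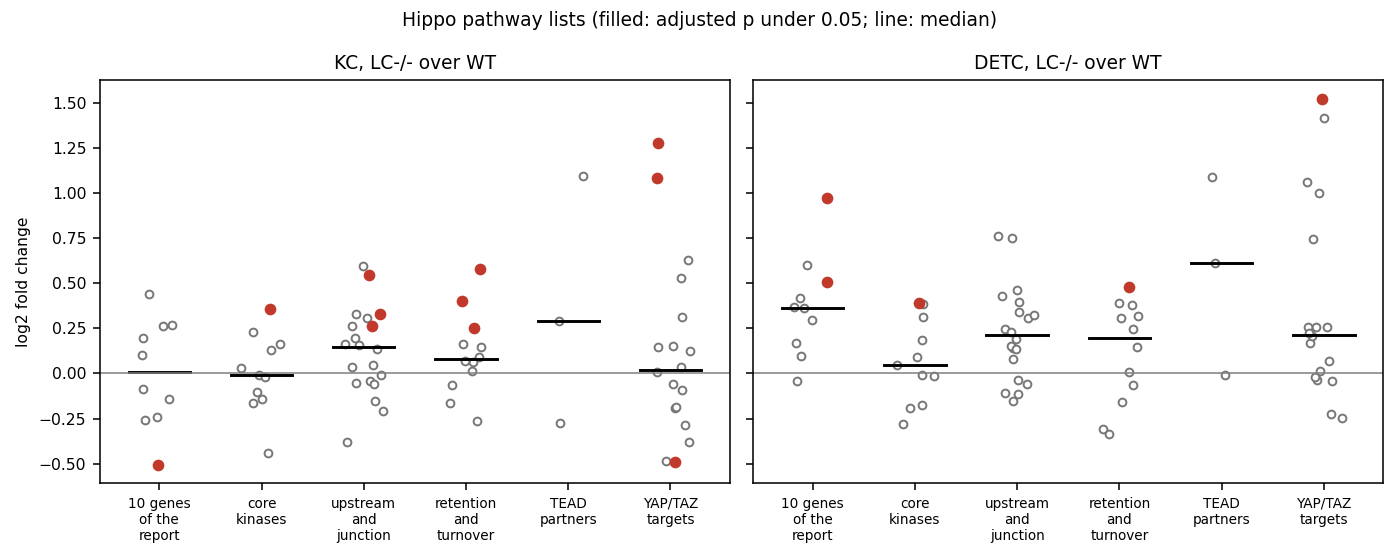
Log2 fold change (vertical axis, LC-/- over WT) of the 10 genes and of 5 Hippo pathway lists in KCs (left) and DETCs (right), 1 point for each gene, filled where the adjusted p was under 0.05, with medians as lines. Of the 63 listed genes tested, 10 are filled in KCs and 3 in DETCs, and most points lie near 0.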

How the data were processed

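RNA-seq libraries of sorted KCs and DETCs, 11 in all, were grouped by the condition and cell population of their labels. Per the study's methods, the authors used cutadapt for trimming, hisat2 for alignment to GRCm38, and featureCounts for reads per gene (versions and strand setting not given in the sources used here). The deposited values are a signal per gene, reads divided by 1 size factor per library (the submitters' processing notes name DESeq2), and 100% of them were whole multiples of the value of 1 read to within 0.01 reads, so reads were recovered. Symbols, positions and exon lengths came from GENCODE mouse release 21 (52403 of 52550 gene identifiers). The 14419 genes kept were tested as log2 of the normalized count plus 1 with limma 3.58.1 in R 4.3.3 (moderated by eBayes with a mean-variance trend, p-values adjusted after Benjamini-Hochberg), so that fold changes of low genes are understated. Genotypes were compared within each population, WT DETCs with WT KCs, and the difference of the changes by an interaction over all libraries. Exact permutation tests used scipy 1.17.1 in Python 3.11.15.

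The 10 genes, the pathway lists, the marker lists and the tests were chosen with earlier results of these data known. Named were the 10 genes, every pathway gene called in KCs or DETCs, 7 further genes (Ccn1, Ccn2, Tead2, Tead4, Stk3, Stk4 and Nf2), the 3 genes most correlated with Yap1, Wwtr1 and Vgll4, and Cd207. Epcam and Kit were named after their values were seen. Alternatives were pseudocounts of 0.5 and 8, no filter, a minimum mean of 10, TMM scaling, quantile normalization, no trend, DESeq2 1.42.0 and edgeR 4.0.16 on recovered reads, 1 fit over all libraries, a replicate block, subtraction of the keratinocyte share and omission of each library. Scripts were tested on simulated counts with 200 genes changed 2-fold. For KCs limma recovered 112 of them, edgeR 194 and DESeq2 193, with 3, 19 and 26 false calls. For DETCs limma recovered 189, with 14 false calls. A KC gene that limma did not call is therefore not shown to be unchanged. Changes smaller than 2-fold were not simulated, so neither is a DETC gene that limma did not call. The spread between replicates exceeded counting error, with 8.28 to 24.12 as chi-square over its degrees of freedom, and a count of 0 allows up to 3 reads. Yap1 overlaps Gm20416 on the other strand by 116 bases, a gene with at most 8 reads in a library.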

Additional observations from a re-analysis of the deposited data

Results flagged for a closer look

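The change of Lats2 and of Vgll4 in LC-/- mice differed between DETCs and KCs by the interaction test. For Lats2 the difference was 1.21 on the log2 scale (limma, adjusted p = 0.00652), from 0.97 in DETCs and -0.24 in KCs, and both LC-/- DETC libraries lay above the 3 WT ones. For Vgll4 it was 0.59 (limma, adjusted p = 0.0243), from 0.51 and -0.09. With the title numbers as a replicate block, limma kept the call for Lats2 (adjusted p = 0.0483) and lost it for Vgll4 (adjusted p = 0.174).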

How the results depend on the processing

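All 10 genes kept direction and call between WT DETCs and WT KCs in all 18 alternatives. In KCs 1 of the 10 genes was called, and 2 with no filter, a minimum mean of 10, quantile normalization, DESeq2 or edgeR, the addition being Frmd6 with quantile normalization and Wwtr1 otherwise. Over all genes these gave 1617, 1740, 633, 1756 and 1783 calls against 1042. Leaving out 1 KC library gave 0 to 2 of the 10 genes (5 to 721 of all genes, the fewest without L1). In DETCs 2 of the 10 were called, 1 with quantile normalization (Lats2, 263 of all genes against 514), 0 by limma without a trend (0 of all genes, and 1554 up and 853 down before adjustment at 0.05) and 1 with the keratinocyte share subtracted (Lats2, 9 of all genes). DESeq2 called 3 of the 10, with Wwtr1, and 1142 genes in all, edgeR 483 and 1 fit over the 11 libraries 959. Leaving out 1 DETC library gave 1 to 4 of the 10, the 4 being Yap1, Wwtr1, Tead3 and Lats2 without L3 (35 to 590 of all genes, the fewest without L2). Higher genes were 87.9% of all DETC calls and 67.7% with quantile normalization. The difference between populations was called for 2 of the 10, and for 1, Lats2, with quantile normalization and without a trend, and for 1 to 2 without 1 library (32 to 138 of all genes, the fewest without L2 of the DETC libraries). After subtraction of the share 3 were called, Wwtr1 being the addition through values set to 0. Over all genes 115 differed, 22 without a trend, 304 by DESeq2 and 356 after subtraction, of which 77.4%, 86.4%, 76.0% and 42.4% were more upward in DETCs, against 59.3% with quantile normalization.

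Title numbers were also fitted as a replicate block for the difference. This fit called 1 of the 10 genes, Lats2 (1.199, adjusted p = 0.0483) and not Vgll4 (0.56, adjusted p = 0.174), and 18 of all genes, and put Tead1 at 0.012. It changed no call between WT DETCs and WT KCs. Over 14039 genes the deviations of KC and DETC libraries with 1 number correlated at -0.0586 for W1 and at 0.0736, 0.12, 0.156 and 0.128 for the pairs of W2, W3, L2 and L3. Each DETC library but W1 correlated best with its own number, a hint from the data and not part of the design. The 2 LC-/- DETC libraries deviate from their mean by opposite amounts, so L2 and L3 are not separate matches (0.156 and -0.156 with L2 of the KC libraries).

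Signs turned as follows, on the log2 scale, and none of these values was called except the Wwtr1 difference after subtraction, a call fixed by both LC-/- DETC libraries being set to 0. With quantile normalization Yap1 in KCs was -0.067, and in DETCs Limd1 was -0.012 and Stk3 0.0054. By edgeR Ccn2 in DETCs was -0.022. With the share subtracted, DETC values were -0.61 for Yap1, -5.63 for Wwtr1, -1.48 for Tead1, -3.24 for Tead3, -0.093 for Lats1, 0.24 for Ajuba, -0.037 for Limd1, -0.16 for Fat1, -3.50 for Ccn1 and -0.12 for Tead4, and differences between populations were -0.71 for Yap1, -6.07 for Wwtr1 and -3.50 for Tead3. Counts below the share were set to 0, which was so for Wwtr1 in both LC-/- libraries, Tead3 in W3, L2 and L3 and Ccn1 in L2, so their sizes come from that limit and are no measured folds. Over fits without 1 library, KC values ranged from -0.21 to 0.090 for Ccn1 and -0.17 to 0.022 for Stk3. DETC values ranged from -0.15 to 0.49 for Tead1, -0.14 to 0.034 for Ajuba, -0.15 to 0.37 for Ccn2 and -0.047 to 0.011 for Stk3. Differences ranged from -0.081 to 0.61 for Yap1, -0.16 to 0.48 for Wwtr1, -0.42 to 0.22 for Tead1 and -0.16 to 0.46 for Tead3. The causes were not tested. No library had fewer than 148 reads of any of the 10 genes, while LC-/- DETCs rest on 2 libraries. Where 1 of them was left out, the other was taken to vary as the WT libraries do.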
